A study of Homo sapiens with 4 samples.

Results

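The proteasome genes were followed in LNCaP, an androgen-responsive human prostate cancer cell line, after exposure to exosomes, small vesicles that cells release, taken from the androgen-independent prostate cancer line PC-3. The members were all probe sets annotated to exactly 1 gene whose symbol is PSM, a letter from A to G, and digits alone. There were 108 such probe sets, for 44 genes, among 44988 probe sets that named a single gene and 18132 genes in all. Expression was measured on 4 Affymetrix arrays of total RNA, 2 from LNCaP cells given PC-3 exosomes (the exosome arrays) and 2 from LNCaP cells given PBS, a salt buffer (the PBS arrays, which the labels also call normal cells with no agent). All 4 came from cells kept in RPMI-1640 medium with fetal bovine serum. Exosome dose and exposure time are not given in the labels used here. Whether the arrays sharing a treatment were separate cultures is not stated either, so each p-value measures only the spread between arrays, which may be technical.

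The proteasome is the protease that degrades proteins tagged with ubiquitin. Its barrel-shaped core particle is built of alpha and beta rings, and the beta subunits PSMB5, PSMB6 and PSMB7 carry the cutting sites. A regulatory particle of ATPases (PSMC genes) and non-ATPase subunits (PSMD genes) caps the core, binds tagged proteins and unfolds them. Interferon-gamma induces PSMB8, PSMB9 and PSMB10, which take the places of PSMB5, PSMB6 and PSMB7 in newly built cores and form the immunoproteasome. It also induces PSME1 and PSME2, the alpha and beta chains of the activator PA28. Both changes alter the peptides available to MHC class I molecules.

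The promoters of the inducible members are shown because 4 of the 5 hold the same short run of letters, with PSMG4, an assembly chaperone that holds it too, and PSMB9, which does not. RefSeq promoters (build GRCh38.p14), 250 bases before to 50 after a gene's start, were matched by symbol to 38 of the 44 member genes and gave 45 windows of 300 bases. The searched motif was the interferon-stimulated response element, ISRE, spelled GAAANNGAAA and read on both strands. It is the element that interferon regulatory factors such as IRF1 bind. Capitals mark its matches, and TTTCGCTTTC is the same element read on the other strand.
PSME1, chr14:24135944-24136243, plus strand: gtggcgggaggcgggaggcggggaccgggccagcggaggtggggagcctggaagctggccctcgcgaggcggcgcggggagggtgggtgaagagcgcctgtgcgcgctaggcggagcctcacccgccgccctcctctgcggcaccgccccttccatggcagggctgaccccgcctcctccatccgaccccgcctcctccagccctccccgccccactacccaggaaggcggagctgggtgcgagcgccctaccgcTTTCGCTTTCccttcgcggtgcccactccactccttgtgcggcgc
PSME2, chr14:24146561-24146860, minus strand: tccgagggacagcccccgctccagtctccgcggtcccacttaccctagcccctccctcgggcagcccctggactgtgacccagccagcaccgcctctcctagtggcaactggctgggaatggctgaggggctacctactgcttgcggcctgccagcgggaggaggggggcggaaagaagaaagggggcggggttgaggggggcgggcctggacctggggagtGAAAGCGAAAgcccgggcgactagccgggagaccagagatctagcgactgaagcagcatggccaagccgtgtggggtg
PSMB10, chr16:67936801-67937100, minus strand: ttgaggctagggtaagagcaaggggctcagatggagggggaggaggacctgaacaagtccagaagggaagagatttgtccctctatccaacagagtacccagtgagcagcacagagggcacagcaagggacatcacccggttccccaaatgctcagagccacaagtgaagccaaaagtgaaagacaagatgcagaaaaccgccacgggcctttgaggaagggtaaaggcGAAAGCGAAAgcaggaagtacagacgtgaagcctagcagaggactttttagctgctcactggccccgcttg
PSMB8, chr6:32843998-32844297, minus strand: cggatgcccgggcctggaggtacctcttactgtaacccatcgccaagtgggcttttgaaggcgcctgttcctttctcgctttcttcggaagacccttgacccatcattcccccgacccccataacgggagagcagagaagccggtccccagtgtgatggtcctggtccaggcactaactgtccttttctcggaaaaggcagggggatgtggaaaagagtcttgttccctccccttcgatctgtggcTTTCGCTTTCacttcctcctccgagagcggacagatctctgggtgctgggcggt
PSMG4, chr6:3258697-3258996, plus strand: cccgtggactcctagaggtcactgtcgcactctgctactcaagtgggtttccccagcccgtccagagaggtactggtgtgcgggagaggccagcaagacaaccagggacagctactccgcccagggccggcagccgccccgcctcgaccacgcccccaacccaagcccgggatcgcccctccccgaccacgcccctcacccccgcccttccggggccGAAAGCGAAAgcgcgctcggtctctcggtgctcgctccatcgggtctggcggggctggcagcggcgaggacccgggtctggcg
PSMB9, chr6:32853942-32854241, plus strand: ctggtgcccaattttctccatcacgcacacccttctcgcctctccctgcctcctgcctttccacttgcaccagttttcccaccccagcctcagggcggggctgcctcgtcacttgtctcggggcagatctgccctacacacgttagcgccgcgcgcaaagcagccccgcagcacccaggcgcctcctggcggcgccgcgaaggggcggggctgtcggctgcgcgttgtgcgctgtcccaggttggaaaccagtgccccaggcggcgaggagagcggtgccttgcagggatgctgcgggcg

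The ISRE letters occurred in 7 of the 45 member windows and in 3.58% of all 35093 promoter windows. The 7 belonged to PSME1, PSME2, PSMB8, PSMB10, PSMG4, PSMA4 and PSMB4. In 5 of them, those of PSME1, PSME2, PSMB8, PSMB10 and PSMG4, the match was the same run, GAAAGCGAAA, on one strand or the other. That exact run, chosen after the matches were seen, occurred in 35 of the 35093 windows, or 0.0997%, these 5 member windows included. It began 28 bases before the start in PSME2 (position -28) and at -21 in PSMB10, and in PSME1 it lay just past the start, at positions 6 to 15. The window of PSMB9 held no GAAANNGAAA, which says only that these letters are not in those 300 bases. PSMB8 and PSMB9 lie together with the peptide transporter genes TAP1 and TAP2 in the RefSeq gene order of that build, and PSME1 and PSME2 are separated by EMC9 alone among protein-coding genes. The antioxidant response element, which NFE2L1 and NFE2L2 bind in many proteasome genes, was spelled TGACNNNGC or TGAGNNNGC. It occurred in 21 of the 45 member windows and in 29.1% of all windows. The gamma-activated site, another interferon element, spelled TTCNNNGAA, occurred in 8 of the 45 and in 7.66% of all windows. A match is a run of letters and was not tested as a binding site.

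Intensities were deposited on a linear scale, 1 value per probe set, and each gene was represented by its probe set with the highest mean. A log2 fold change is the exosome mean minus the PBS mean of log2(intensity + 1), tested with limma, and adjusted p is the Benjamini-Hochberg value over all 18132 genes, with the threshold at 0.05. Median intensities of the 4 arrays lay between 110.8 and 112.4; precision is limited by there being only 4 arrays. Of the listed LNCaP markers 4 of 7 were measured here (KLK3, KLK2, TMPRSS2 and HOXB13), at mean intensities from 3294 to 14098. The extraction text of the labels speaks of brain cortex, and 6 brain markers were measured at 34.7 to 816. The 5 markers of PC-3, the donor of the exosomes, were measured at 45.6 to 538. Of the LNCaP, brain and PC-3 markers 0 passed the limma test (at an unadjusted p under 0.05, 2 genes of these lists were higher and 2 were lower). The 7 markers of immune cells, which hold the immunoproteasome at rest, were measured at 15.7 to 304. Of these, 0 passed the limma test in either direction (0 at an unadjusted p under 0.05). The lowest was the leukocyte marker PTPRC, between 15.0 and 16.1, and the highest was CD68. A level in bulk RNA cannot tell more RNA per cell from a change in some of the cells.

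After PC-3 exosomes the activator genes PSME1 and PSME2 rose, while no other member gene passed the test. These 2 were 4.55% of the 44 members, and 0 members fell, beside 0.7% of all genes called higher and 0.188% called lower (0.888% in either direction). Centred on poly-A controls, which are RNAs spiked in before labelling, 60 genes were called higher and 326 lower over the whole array, in place of 127 and 34. At an unadjusted p under 0.05 by limma, 4 members were higher (PSMB9, PSMD8, PSME1 and PSME2) and 0 lower, beside 5.76% and 5.16% of all genes. The median log2 fold change was -0.01 for the members and -0.01 over all genes tested. The groups did not overlap, with exosome arrays the higher, in 7 member genes (15.9%, against 17.8% of all genes), and with exosome arrays the lower in 8 (18.2%, against 21.9%). The mean intensity was at least 1000 for 38 of the 44 and under 100 for 4 (PSMA8, PSMB8, PSMB9 and PSMB11). The median SE of a member's log2 fold change was 0.044, against 0.078 over all genes.

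PSME1, the alpha chain of PA28, read 2726 and 2661 on the exosome arrays and 2313 and 2125 on the PBS arrays. Both exosome arrays were above both PBS arrays. The means were 2694 ± 45.4 (SD, n = 2) and 2219 ± 133 (SD, n = 2), a 1.22-fold rise (log2 fold change 0.28, SE 0.051, limma adjusted p = 0.045). PSME2, the beta chain, read 3704 and 3657 with exosomes and 3088 and 3211 with PBS. Here too the groups did not overlap, and the lower exosome array stood above the higher PBS array. The means were 3680 ± 32.9 (SD, n = 2) and 3149 ± 87.1 (SD, n = 2), a 1.17-fold rise (log2 fold change 0.22, SE 0.041, limma adjusted p = 0.046). Both calls sat close to the threshold. Without any 1 of the 4 arrays (exosome replicate 1, exosome replicate 2, PBS replicate 1 or PBS replicate 2) neither gene passed, with a log2 fold change of 0.22 to 0.34 for PSME1 (adjusted p 0.069 to 0.317) and 0.20 to 0.25 for PSME2 (adjusted p 0.142 to 0.380). When the arrays were instead centred on the poly-A controls, the median of all genes was -0.15, PSME1 was at 0.14 (adjusted p = 0.291) and PSME2 at 0.09 (adjusted p = 0.485).

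**Figure D1:**
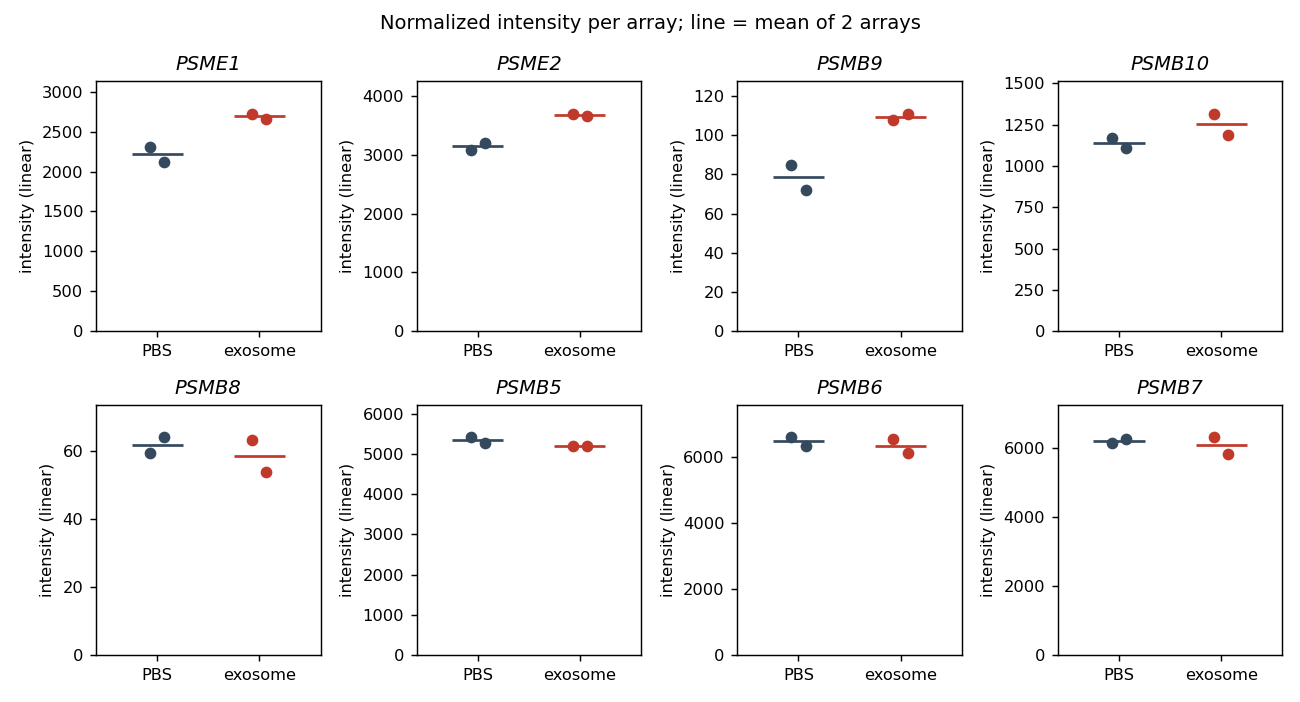
Normalized intensity (linear, from 0) of the inducible genes PSME1, PSME2, PSMB9, PSMB10 and PSMB8 and of the constitutive catalytic subunits PSMB5, PSMB6 and PSMB7, with a point for each array and a line at the mean of 2. The exosome arrays lie above the PBS arrays in PSME1, PSME2, PSMB9 and PSMB10, and overlap them or lie below them in the remaining genes.

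The remaining probe sets of PSME1 gave values close to that of the one chosen for the gene. Its 3 probe sets had log2 fold changes of 0.28, 0.25 and 0.28, and in each of them the groups did not overlap. PSME2 had 1 probe set, of a kind whose name ending (_s_at) marks probes that can match several transcripts. Such an ending, or _x_at, marked 41 of the 108 member probe sets, and whether they read other genes is not known. In a fit of every single-gene probe set, which adjusts over 44988 tests, 0 of the 108 member probe sets passed by limma in either direction, beside 0.238% of all probe sets called higher and 0.02% called lower. At an unadjusted p under 0.05, 8 member probe sets were higher and 1 was lower, and 4.73% and 4.14% of all probe sets met that rule. The smallest adjusted p of a member probe set there was 0.111, for 1 of PSME1.

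Among the inducible catalytic subunits, 0 of 3 passed the limma test (1 at an unadjusted p under 0.05), and each had its own pattern. PSMB9, which takes the place of PSMB6, read 107.9 and 110.97 with exosomes and 84.7 and 72.3 with PBS. Both exosome arrays were above both PBS arrays. The means were 109 ± 2.19 and 78.5 ± 8.77 (SD, n = 2 each). The log2 fold change was 0.48 (SE 0.096, limma adjusted p = 0.065). The other two probe sets of PSMB9 gave different values. One read 59.6 and 68.5 with exosomes and 58.3 and 60.5 with PBS, a log2 fold change of 0.10 with overlapping groups. The last read 43.2 and 39.6 with exosomes and 57.8 and 48.1 with PBS, a log2 fold change of -0.34 in the opposite direction. As the mean of its 3 probe sets PSMB9 had 0.08. All 3 had mean intensities under 100. The call also turned on the setting: PSMB9 was past the threshold after quantile normalization (adjusted p = 0.037), after centring on the array median (adjusted p = 0.049) and among genes at or above the 30th percentile (adjusted p = 0.035). These were 3 of 13 alternatives. PSMB9 was not past the threshold when centred on the poly-A controls (limma adjusted p = 0.181) or as the mean of its 3 probe sets (limma adjusted p = 0.799).

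PSMB10, which takes the place of PSMB7, was not past the threshold. It read 1317 and 1188 with exosomes and 1171 and 1109 with PBS, so the lower exosome array stood just above the higher PBS array. The log2 fold change was 0.13 (SE 0.062, limma adjusted p = 0.476). Its 3 probe sets had values of 0.13, 0.16 and 0.10, each with groups that did not overlap. Centred on the poly-A spike-ins the gene was at -0.01. PSMB8, which takes the place of PSMB5, read 63.1 and 53.7 with exosomes and 59.3 and 63.9 with PBS, and the groups overlapped (log2 fold change -0.08, SE 0.10, limma adjusted p = 0.852). The remaining PSMB8 probe sets read 32.7 to 37.2 and 13.3 to 14.6. The median of the 23 background control probe sets was 18.7 to 19.6 on the 4 arrays, but single controls reached 3750, so whether PSMB8 was detected is not known.

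**Figure D2:**
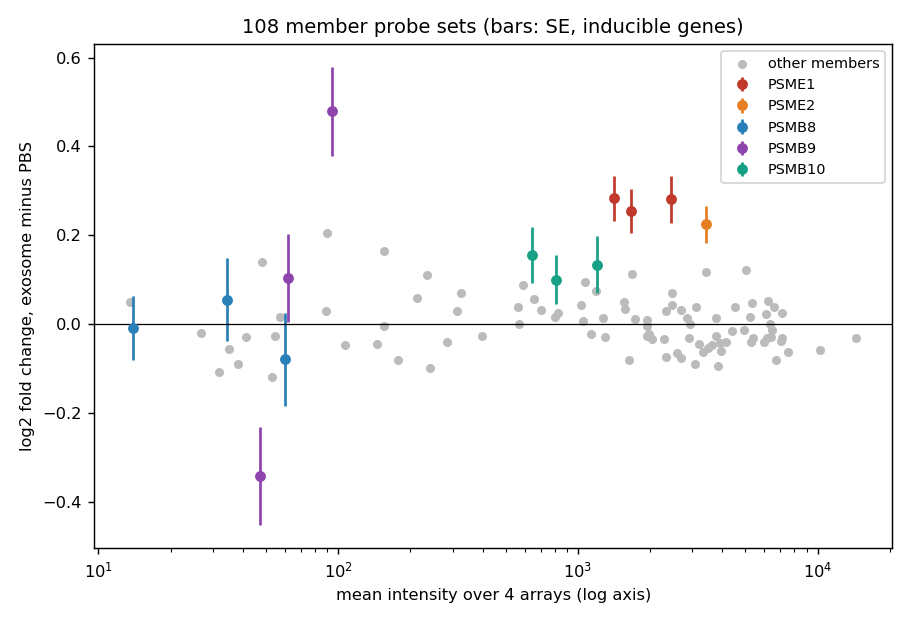
Log2 fold change (exosome minus PBS) against mean intensity (log axis) for the 108 member probe sets, with SE bars for the inducible genes and other members in grey. The 3 probe sets of PSME1 and the 1 of PSME2 lie between 0.22 and 0.28, and those of PSMB9 spread from -0.34 to 0.48 at the dim end.

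The constitutive partners of these subunits were not past the threshold, and their log2 fold changes lay between -0.04 and -0.03. PSMB5, the chymotrypsin-like subunit, read 5197 and 5207 with exosomes and 5416 and 5278 with PBS. Its exosome arrays were just below its PBS arrays (log2 fold change -0.04, SE 0.037, limma adjusted p = 0.772), and its 5 probe sets ran from -0.08 to -0.04. PSMB6, the caspase-like subunit, read 6538 and 6126 with exosomes and 6586 and 6336 with PBS, overlapping, with a log2 fold change of -0.03 (SE 0.043). PSMB7, the trypsin-like subunit, read 6299 and 5828 with exosomes and 6145 and 6242 with PBS, also overlapping, with -0.03 (SE 0.044).

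Inducible and constitutive subunits were compared directly as the log2 ratio of each inducible gene to its partner within an array, relative to the mean of the PBS arrays. For PSMB9 over PSMB6 the ratio was 0.44 and 0.58 on the exosome arrays and 0.08 and -0.08 on the PBS arrays, a difference of 0.51 (SD within groups 0.11). For PSMB10 over PSMB7 it was 0.18 and 0.15 against 0.05 and -0.05, a difference of 0.17 (SD within groups 0.054). In both of these pairs the groups did not overlap. For PSMB8 over PSMB5 it was 0.08 and -0.16 against -0.07 and 0.07, a difference of -0.04 (SD within groups 0.14), with overlap. The exact permutation test, two-sided, gave p = 0.33 for PSMB9 and PSMB10, the smallest that 2 arrays against 2 can give, and p = 1 for PSMB8, or 0.5, 0.5 and 1 adjusted over the 3 pairs. With this test no pair could pass 0.05, and no other test was run on the pairs. With genes taken as the mean of their probe sets the PSMB9 pair had a difference of 0.11 in place of 0.51.

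**Figure D3:**
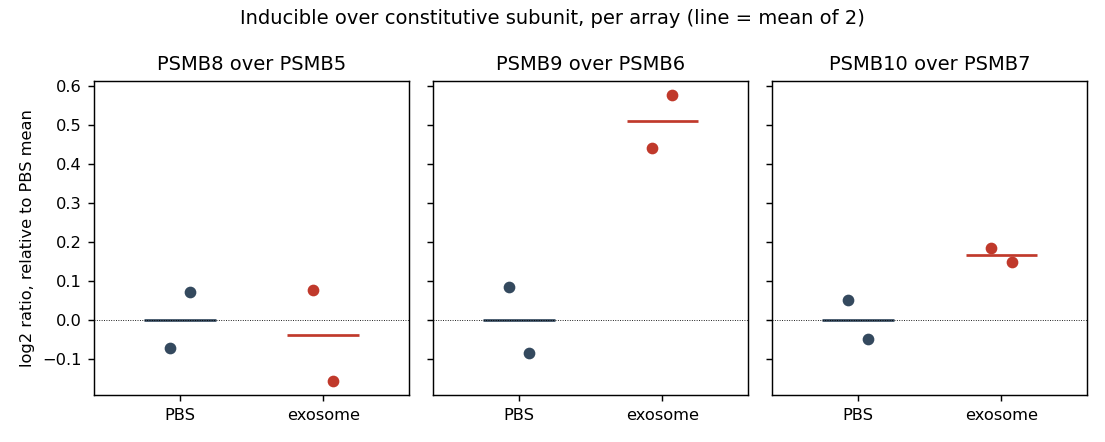
Log2 ratio of each inducible catalytic subunit to its constitutive partner on each array, relative to the mean of the PBS arrays, with a line at the mean of 2 arrays. The ratio is higher on both exosome arrays for PSMB9 over PSMB6 (0.44 and 0.58) and PSMB10 over PSMB7 (0.18 and 0.15), and overlaps for PSMB8 over PSMB5.

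As groups, the 5 inducible genes (PSMB8, PSMB9, PSMB10, PSME1 and PSME2) had a median log2 fold change of 0.22, with 4 above 0 and 1 below, and 2 of 5 rose. The other 37 members, leaving out the tissue-restricted PSMA8 and PSMB11, had a median of -0.02 and ran from -0.09 to 0.12, with 16 above 0 and 21 below. Of these 37, 0 passed the limma test (1 at an unadjusted p under 0.05). Among all genes 44% were above 0, and 0.7% were called higher and 0.188% lower. Centred on the poly-A controls, 0 member genes were called higher.

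In the core particle the 13 constitutive subunits measured ran from -0.08 to 0.05, with a median of -0.03 and 0 past the limma threshold (0 at an unadjusted p under 0.05). Their mean intensities were 4538 to 14482. PSMA2, the alpha subunit with the lowest log2 fold change, read 6544 and 6508 with exosomes and 6674 and 7150 with PBS. Its exosome arrays were both the lower, and the log2 fold change was -0.08 (SE 0.041, limma adjusted p = 0.520). PSMA1, the alpha subunit with the highest value, read 5441 and 5418 against 5091 and 5425, overlapping, at 0.05 (SE 0.042). PSMB3, a structural beta subunit, had the highest value among the constitutive beta subunits. It read 6545 and 6140 against 6139 and 6102, at 0.05 (SE 0.041), and its lower exosome array was only just above its higher PBS array. PSMA1 and PSMB3 were below 0 on the poly-A scale, at -0.09 each.

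The tissue-restricted core subunits had low intensities. PSMA8, an alpha subunit of the testis, read 26.1 to 27.8 on the 4 arrays with overlapping groups. PSMB11, the catalytic subunit of thymic epithelium, read 37.8 and 36.1 with exosomes and 38.0 and 40.9 with PBS, at -0.09 (SE 0.085, limma adjusted p = 0.780).

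In the regulatory particle 14 of the 17 listed subunits were measured. They had a median of -0.02, and 0 passed the limma test (1 at an unadjusted p under 0.05). Of the 5 ATPases 4 were below 0. PSMC1 had the lowest value of all members, at 3851 and 3584 with exosomes and 3931 and 4001 with PBS. Its groups did not overlap (log2 fold change -0.09, SE 0.045, limma adjusted p = 0.50), and its other probe set, at -0.09, did not overlap either. PSMC4, the ATPase with the highest value, read 1761 and 1704 against 1746 and 1693, at 0.01 (SE 0.046), with overlap. Among the non-ATPases PSMD4, a ubiquitin receptor, had the lowest value, with 2341 and 2189 against 2463 and 2306, at -0.07 (SE 0.052), overlapping.

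PSMD8, a lid subunit, had the highest log2 fold change of the regulatory particle genes. It read 5388 and 5097 with exosomes and 4904 and 4736 with PBS, and both exosome arrays were above both PBS arrays. Its log2 fold change of 0.12 (SE 0.042) was not past the threshold (limma adjusted p = 0.320). Of its 3 probe sets a second had 0.12 with groups apart, and the third 0.04 with overlap. Centred on the poly-A spike-ins PSMD8 was at -0.02.

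Of the assembly chaperones and the remaining activators 0 passed the limma test (0 at an unadjusted p under 0.05). PSMD5, PSMD9 and PSMD10, which help build the regulatory particle, had values from -0.06 to 0.05 with overlapping groups. PSMD9 read 1610 and 1559 against 1579 and 1483 with PBS, and PSMD10 read 3801 and 3929 against 3928 and 4132. The core chaperones PSMG1, PSMG2, PSMG3 and PSMG4 ran from -0.08 to 0.0003. PSMG4, whose promoter window holds the same ISRE run as PSME1 and PSME2, read 1659 and 1517 with exosomes and 1653 and 1705 with PBS. Its groups overlapped, at -0.08 (SE 0.055, limma adjusted p = 0.650), and its 6 probe sets ran from -0.10 to 0.07. PSMG3 had a log2 fold change of 0.0003, from 589 and 547 against 605 and 533.

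PSME3, the nuclear relative of PSME1 and PSME2 that forms a ring of its own, had 0.04 (SE 0.053), and its 3 probe sets ran from 0.03 to 0.06. PSME4, the activator PA200, read 1250 and 1311 with exosomes and 1224 and 1313 with PBS, overlapping, at 0.01 (SE 0.055). PSMF1, the regulator PI31, read 1096 and 1116 with exosomes and 1005 and 1068 with PBS, groups apart, at 0.09 (SE 0.053, limma adjusted p = 0.572). Its 6 probe sets ran from -0.08 to 0.14, and the gene was at -0.05 on the poly-A scale. The difference between these activators and PSME1 and PSME2 was not tested.

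**Figure D4:**
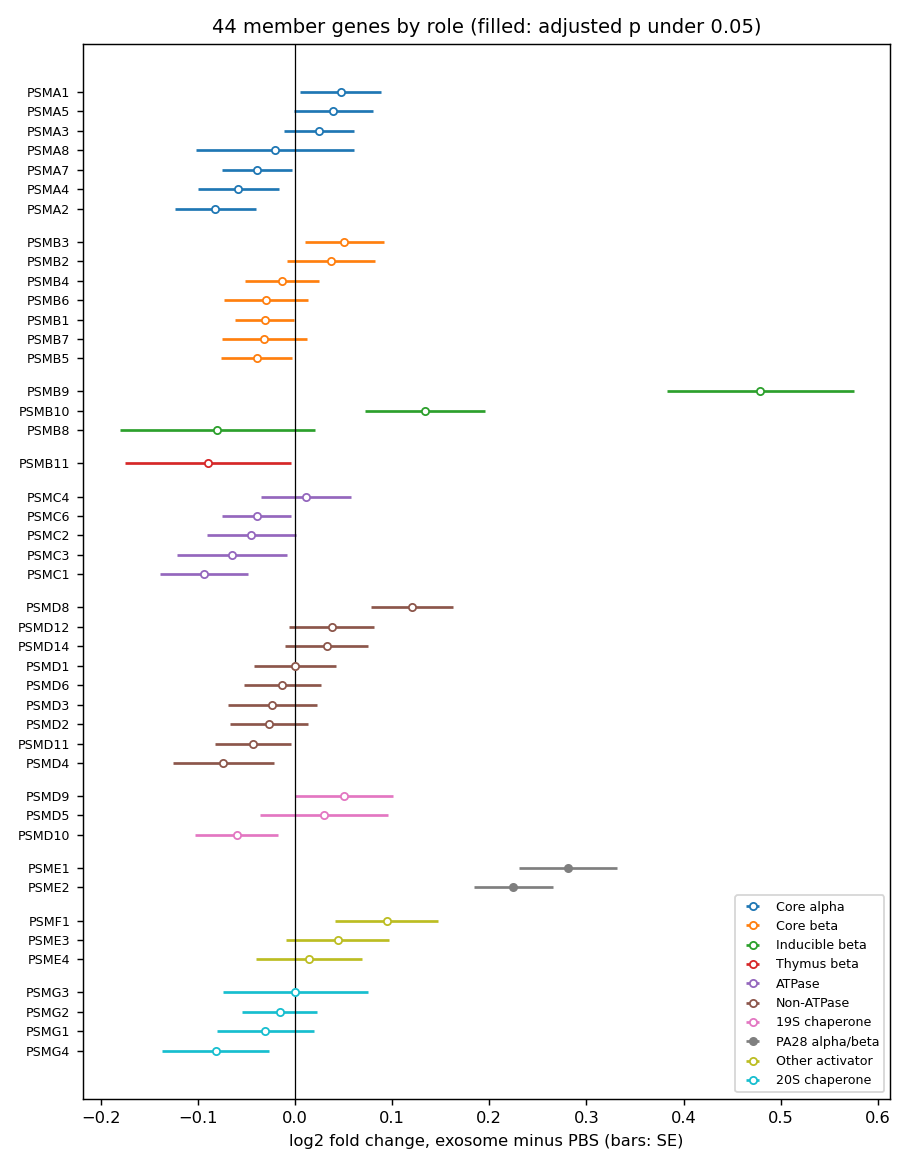
Log2 fold change (exosome minus PBS, bars are the SE) of the 44 member genes, ordered within role, with filled points for an adjusted p under 0.05. PSME1 and PSME2 are the filled points at 0.28 and 0.22, PSMB9 lies at 0.48 with a wide bar, and the members outside the inducible genes lie between -0.09 and 0.12.

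Agreement in sign between probe sets of a gene was counted over members and over all genes. Of the 32 member genes with more than 1 probe set, 16 had all of them on one side of 0, and 41.1% of all genes with several probe sets did. Among the 108 member probe sets the groups did not overlap in 16 with exosome arrays higher (14.8%, against 17.2% of all probe sets) and in 18 with exosome arrays lower (16.7%, against 20.5%). The inducible genes, with 13 of the 108 probe sets, held 8 of those 16 and 1 of those 18. The 8 were the 3 of PSME1, the 3 of PSMB10, that of PSME2 and 1 of PSMB9. Probe sets of the same gene were read on the same arrays and are not independent. PSMB5 held 4 of the 18, and PSMB1, PSMC1 and PSMG4 held 2 each.

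Genes that work with the proteasome were read from lists of related genes, which were chosen with earlier results of these data known. Of 11 measured genes of antigen processing that interferon-gamma induces, and their regulators, 4 rose and 0 fell. Over all genes 0.7% were called higher and 0.188% lower. The median of the 11 was 0.15, each gene read from its probe set of highest mean intensity over the 4 arrays. IRF1, a transcription factor that drives many of them, read 147 and 145 with exosomes and 76.0 and 77.0 with PBS (log2 fold change 0.93, limma adjusted p = 0.0012). The remaining 3 probe sets of IRF1 did not share that size: they had 0.16 with groups apart, 0.05 with overlap, and -0.25 with the exosome arrays the lower. On the PBS arrays the chosen IRF1 probe set had a mean of 76.5. That is below the 91.7 of the one at 0.16 and the 104 of the one at -0.25. The choice of the IRF1 probe set therefore drew on the exosome values that its fold change reports. TAPBP, which loads peptide onto MHC class I, rose by 0.57 (SE 0.072, limma adjusted p = 0.0097) by its chosen probe set. The other 4 TAPBP probe sets were all below 0, from -0.11, with the exosome arrays the lower, to -0.01, so the rise rests on 1 probe set of 5. On the PBS arrays that probe set had a mean of 332, below the 401 of another TAPBP probe set, which had -0.03. Its choice too drew on the exosome values. TAP1, the gene next to PSMB9, rose by 0.33 (SE 0.055, limma adjusted p = 0.031), and its second probe set had 0.24 with groups apart. B2M, the light chain of MHC class I, rose by 0.29 (SE 0.048, limma adjusted p = 0.029), and its 8 probe sets, 2 of them with identical values, ran from 0.17 to 0.36, each with groups apart. Of 12 other proteins that bind or assemble the proteasome, 0 passed the limma test (1 at an unadjusted p under 0.05). ECPAS, a scaffold of the proteasome, had 0.18 (SE 0.070) and UBE3C, a ubiquitin ligase bound to it, 0.09 (SE 0.062). In the list of NFE2L1, the factor that raises proteasome genes when the proteasome is impaired, and its processing, 0 of 7 passed (2 at an unadjusted p under 0.05). NFE2L1 itself read 1785 and 1784 with exosomes and 1628 and 1497 with PBS, groups apart, at 0.19 (SE 0.052, limma adjusted p = 0.188). Its 6 probe sets ran from -0.0041 to 0.19, and 3 of them had overlapping groups. SYVN1, a ubiquitin ligase, had 0.13 (SE 0.055). Of 7 ubiquitin genes, E1 enzymes and shuttles 0 passed (0 at an unadjusted p under 0.05), and UBB, a ubiquitin gene, had -0.03 (SE 0.031) and UBA6, an E1 enzyme, 0.04 (SE 0.052).

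**Figure D5:**
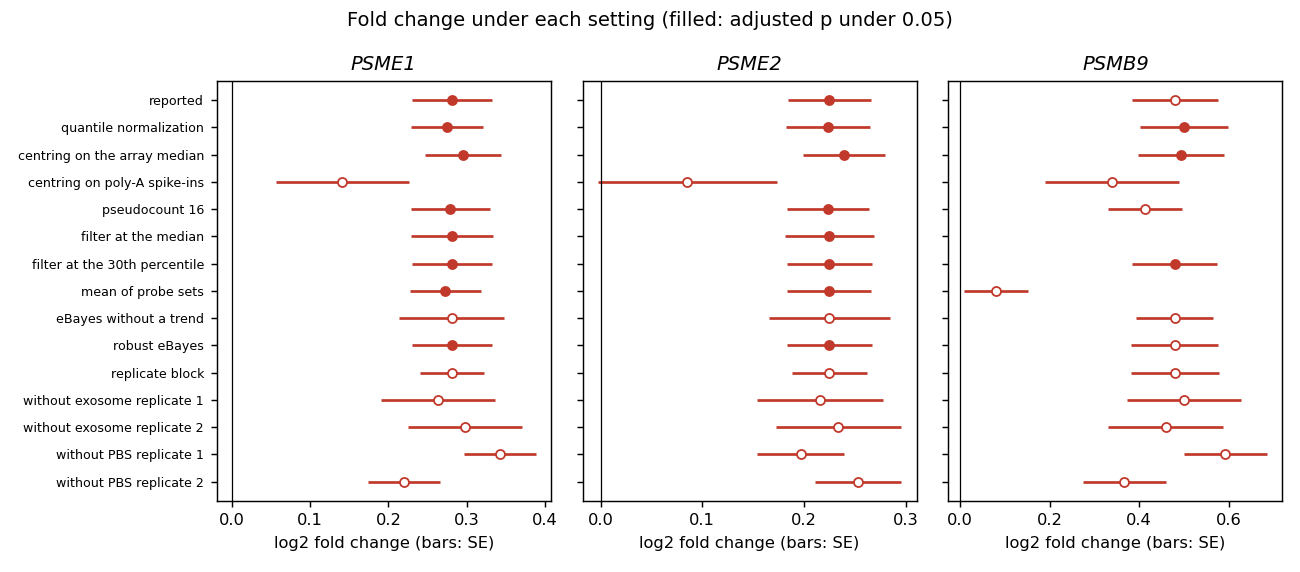
Log2 fold change (bars are the SE) of PSME1, PSME2 and PSMB9 under the reported setting and each alternative, with filled points for an adjusted p under 0.05. The values of PSME1 and PSME2 stay above 0 in all 14 alternatives and pass the threshold in 7 of them, while PSMB9 passes in 3 of 13 and is at 0.08 as the mean of its probe sets.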

How the data were processed

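The data were normalized intensities, as deposited by the authors, on a linear scale with 1 value per probe set (49395 probe sets, 102 of them controls). MAS5 and RMA are named, per the submitters' processing notes, without role, order or version, and the genome build behind the array is not given in the sources used here. Probe sets were named through GEO's platform annotation: 44988 had 1 gene symbol, 1832 several and 2473 none, and only the first were used. Of the 48 listed proteasome genes, PSMA6, PSMC5, PSMD7 and PSMD13 were not analysed here, since no probe set named them alone, and 2 probe sets naming a proteasome gene were left out by the rule. No further normalization was applied.

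Values were taken to log2(value + 1), so a fold is on that scale and understates the change of dim genes. Exosome minus PBS was tested two-sided with limma 3.58.1 in R 4.3.3 (lmFit, eBayes with a trend, 2 residual degrees of freedom), without a block, with Benjamini-Hochberg adjustment over 18132 genes and, as a second fit, over 44988 probe sets. The same fit was run on simulated data with known changes, drawn from its own variance estimates. Such data cannot show whether those estimates hold for these arrays. Pairs of subunits were compared with an exact permutation test over arrays.

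Named with a value in every array were the catalytic subunits and their inducible partners, PSME1, PSME2, members past the threshold, and the highest and lowest member of each role list. Each related list gave its genes past the threshold (at most 4) or, with none, the 2 of smallest p. The members and lists were chosen with earlier results of these data known. Alternatives were 3 normalizations, another pseudocount, 2 filters, another summary of probe sets, other variance models and thresholds, a replicate block and leaving out each array. Figures were drawn with matplotlib 3.10.9.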

Additional observations from a re-analysis of the deposited data

How the results depend on the processing

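With 2 arrays a group, the 2 member genes called higher became 0 without any 1 array (0 to 0 over the 4 fits), with eBayes without a trend, centred on the poly-A spike-ins, at an adjusted p under 0.01 and with the replicate number as a block (0 called). The replicate numbers are not explained in the labels and same-numbered arrays did not deviate together (r = -0.04 over genes), so the block is given only here. Members called lower, and member probe sets called in either direction, were 0 in each alternative run. Without a trend PSME1 and PSME2 kept 0.28 and 0.22 at an adjusted p of 0.293 and 0.335, and with the block 0.191 and 0.213. Over all genes the 127 called higher and 34 lower became 60 and 326 on the poly-A scale, 213 and 84 above the median level, 18 and 3 without a trend, 43 and 5 at 0.01, 203 and 69 at 0.1, 2 and 0 with the block, and 28 to 40 and 4 to 7 without an array. Those called lower were 68 after quantile normalization and 57 among genes at or above the 30th percentile. The PSMB8 pair difference of -0.04 was 0.0454 with the mean of probe sets, and ran from -0.1564 to 0.076 with an array left out. The PSMB9 pair difference was 0.11 with the mean of probe sets. Centring on poly-A spike-ins lowers each log2 fold change by 0.14 and took the median of all genes to -0.15 and of members to -0.15. It turned 8 of 21 named genes below 0: PSMA1 to -0.0928, PSMB3 to -0.0889, PSMB10 to -0.0057, PSMC4 to -0.1283, PSMD8 to -0.0189, PSMD9 to -0.0895, PSMF1 to -0.0455 and PSMG3 to -0.1394. Quantile normalization put PSMC4 at -2e-04 and PSMG3 at -0.0186. Without an array PSMB6 ran from -0.0766 to 0.0173, PSMB7 from -0.0876 to 0.0244, PSMB8 from -0.1946 to 0.0351, PSMC4 from -0.0121 to 0.035 and PSMG3 from -0.0916 to 0.0922. The median of all genes was 0.0025 when centred on array medians and 0.0018 among genes above the median level. The median of members was 0 when centred on array medians and ran from -0.0221 to 0.0035 without an array. The filter at the median left no value for PSMB8, PSMB9 and PSMB11, and that at the 30th percentile none for PSMB8 and PSMB11. The cause of these differences was not tested. The signal of the dim members over background is not known, which limits PSMB8, PSMB9, PSMB11 and PSMA8.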
